A study of Mus musculus with 6 samples.

Results

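Growth factor and cytokine receptors that act in liver regeneration were compared between hepatocytes with high and with low Tert expression. The group was a fixed list of 8 genes, Egfr, Erbb3, Met, Fgfr4, Klb, Lifr, Il6ra and Il6st, found by their symbols among the 15565 genes of the deposited count table. All 8 were present, and all 8 passed the expression filter that left 13288 genes for testing. Hepatocytes are the parenchymal cells of the liver, and Tert is the gene of telomerase's catalytic subunit. The cells came by collagenase perfusion from 3 C57BL/6 mice of 2 months and went through a sort that gave a TERT(High) and a TERT(Low) population, 1 library of each per mouse. All animals shared 1 genotype, Tert CreERT2/+ with R26 LSL-Tomato/+, that is, an inducible recombinase at 1 Tert allele and a Cre-dependent red reporter at 1 R26 allele. The comparison asks how far the RNA of these receptors differs between the sorted populations of the same livers. The labels name neither the sorting gate nor any tamoxifen dose, and both groups carried the modified Tert allele.

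These receptors belong to several signalling families. EGFR and its kinase-poor relative ERBB3 bind or relay EGF-type and neuregulin signals, MET binds hepatocyte growth factor, and FGFR4 with its co-receptor beta-Klotho (KLB) binds intestinal FGF15, which lowers bile acid synthesis. IL6RA binds interleukin-6 and LIFR binds leukaemia inhibitory factor and related cytokines, and both pass the signal through the shared subunit gp130 (IL6ST) to JAK kinases and STAT3. After loss of liver tissue, HGF-MET and EGFR signals drive hepatocytes to divide and interleukin-6 prepares them for it.

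Library totals were 53.6 to 64.1 (1e6 counts) in TERT(High) and 55.4 to 76.2 (1e6 counts) in TERT(Low). The level of a gene is its count per 1000000 in a library after TMM scaling (CPM), with SD over n = 3 libraries per group, and differences are log2 fold changes of TERT(High) over TERT(Low) from edgeR (quasi-likelihood test, p-values adjusted over all tested genes by Benjamini-Hochberg). Tert itself had 38, 33 and 30 counts in TERT(High) of mice 1, 2 and 3 and 21, 21 and 12 in TERT(Low). Every TERT(High) library was above every TERT(Low) library, but the log2 difference of 0.87 (SE 0.44) had an edgeR adjusted p of 0.249. Over all tested genes the call rule took 4.43% as higher and 3.71% as lower, which is 588 and 493 genes. That split depended on the scaling, with 628 higher and 19 lower for library totals alone and 542 higher and 712 lower for upper-quartile scaling. Library totals also moved the median log2 fold change of all tested genes from -0.01 to 0.14.

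Of the 8 receptors, 2 were higher in TERT(High) at an edgeR adjusted p under 0.05, Il6st and Met, against 4.43% of all tested genes. None was lower, against 3.71% of all tested genes. Before adjustment the same 2 had an edgeR p under 0.05 in the higher direction, against 16.3% of all tested genes, and 0 in the lower direction, against 12.4%. DESeq2, which called 12.8% of genes higher and 10.6% lower, took the same 2 receptors as higher and 0 as lower, and so did limma-voom, which called 10.3% of genes higher and 8.31% lower. Without the TERT(High) library of mouse 1 edgeR again called Met and Il6st higher, against 6.85% of genes, and 0 lower, against 5.21%. Without any other single library, or without any 1 mouse, edgeR called 0 receptors and 0 of all genes; without the TERT(High) library of mouse 2, Met was at 0.95 and Il6st at 0.98, both with an adjusted p of 0.0911. The median log2 fold change was 0.91 over the receptors and -0.01 over all tested genes. The receptors' median was 0.33 without the TERT(High) library of mouse 2 and 0.60 without both libraries of that mouse. In 4 receptors, Egfr, Met, Klb and Il6st, the 3 TERT(High) libraries lay wholly above the 3 TERT(Low) libraries, as did 17.5% of all tested genes, and 0 receptors lay wholly below, against 15.9%. In 6 receptors the TERT(High) library was the higher one in all 3 mice, as in 28.2% of all tested genes. The exceptions were Fgfr4 and Lifr, each higher in 2 of the 3 mice.

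**Figure D1:**
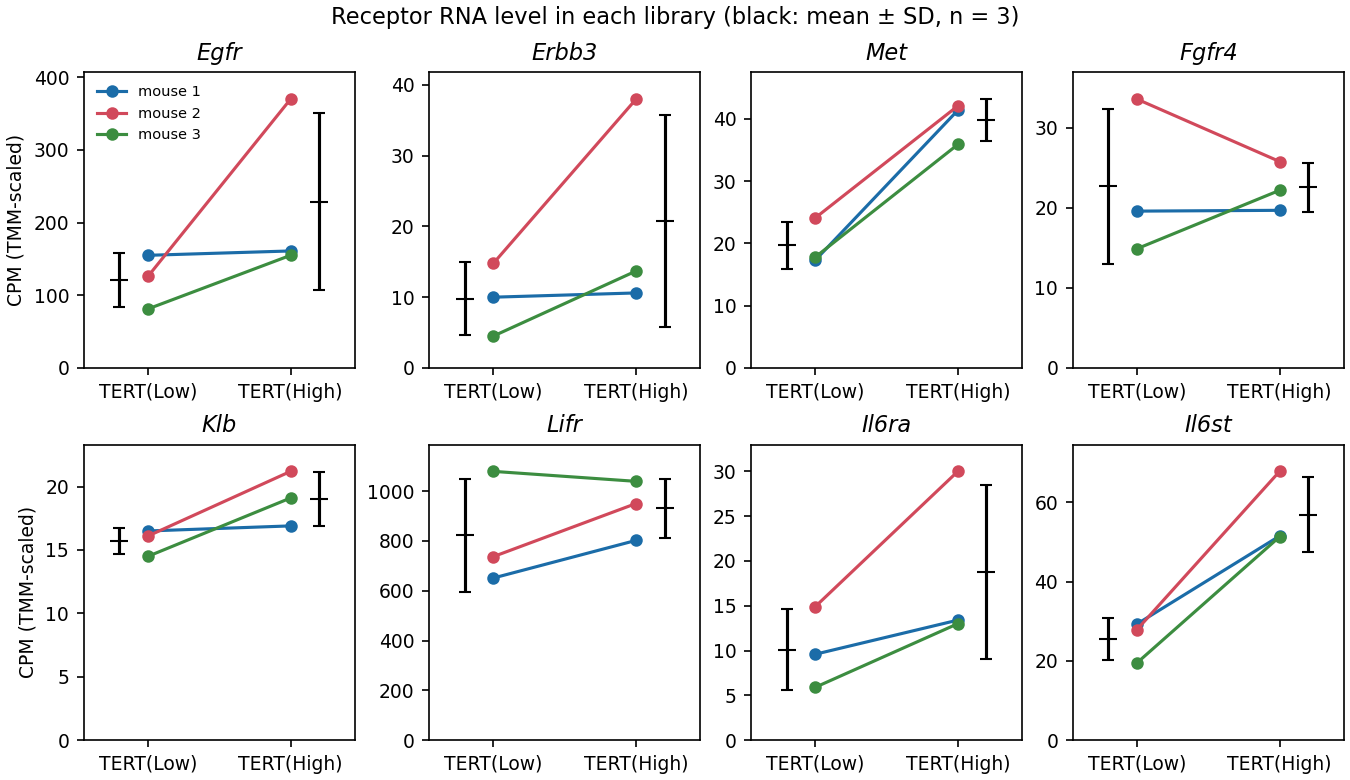
CPM (TMM-scaled, linear axis from 0) of each receptor in the 6 libraries; lines join both libraries of 1 mouse, and black bars give the mean ± SD of 3 libraries. Il6st and Met are higher in TERT(High) in every mouse, Fgfr4 means are 22.6 and 22.7 CPM, and the TERT(High) library of mouse 2 stands high for Egfr, Erbb3 and Il6ra.

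Among the receptor tyrosine kinases, Met, the receptor for hepatocyte growth factor, passed the test. Met (Entrez 17295, chr6:17463349-17573980, plus strand, 22 exons) stood at 41.4, 42.1 and 35.9 CPM in TERT(High) of mice 1, 2 and 3 and at 17.3, 24.1 and 17.8 CPM in TERT(Low). All TERT(High) libraries were above all TERT(Low) libraries, and the within-mouse folds were 2.40, 1.75 and 2.01. Mean levels were 39.8 ± 3.39 and 19.7 ± 3.79 CPM, a log2 difference of 1.01 (SE 0.18, edgeR adjusted p = 0.0310).

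Egfr (Entrez 13649, chr11:16752203-16913907, plus strand, 28 exons) encodes the receptor for EGF, TGF-alpha and amphiregulin. Its level was 161, 370 and 155 CPM in TERT(High) and 155, 126 and 81.2 CPM in TERT(Low). The groups did not overlap, but the lowest TERT(High) library, that of mouse 3, barely exceeded the TERT(Low) library of mouse 1. Within mice the fold ran from 1.04 in mouse 1 to 2.93 in mouse 2 and 1.91 in mouse 3. The log2 difference of 0.92 (SE 0.41) did not pass, with an edgeR adjusted p of 0.197. Without the TERT(High) library of mouse 2 it was 0.36.

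Erbb3 (Entrez 13867, chr10:128567523-128589635, minus strand, 28 exons) encodes the neuregulin receptor that signals through a kinase-active partner. It stood at 10.6, 38.0 and 13.7 CPM in TERT(High) and at 10.0, 14.8 and 4.51 CPM in TERT(Low). Here the groups overlapped, since the TERT(Low) library of mouse 2 was above the TERT(High) libraries of mice 1 and 3. The fold was 1.06 in mouse 1, 2.57 in mouse 2 and 3.04 in mouse 3. The log2 difference was 1.09 (SE 0.60, edgeR adjusted p = 0.291), and 0.29 without the TERT(High) library of mouse 2. Erbb2, the usual partner of ERBB3, had only 2 to 10 counts per library and was below the filter.

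The 2 parts of the FGF15 receptor showed no difference past the test. Fgfr4 (Entrez 14186, chr13:55152818-55168759, plus strand, 18 exons), the kinase subunit, was at 19.7, 25.8 and 22.2 CPM in TERT(High) and 19.6, 33.6 and 14.9 CPM in TERT(Low). The TERT(Low) library of mouse 2 lay above all TERT(High) libraries, and those of mice 1 and 3 lay below them. Within mice the fold was 1.0, 0.768 and 1.48, and the log2 difference was -0.01 (SE 0.31, edgeR adjusted p = 0.987). Its sign changed with the settings, so no direction can be given. Klb (Entrez 83379, chr5:65348411-65386957, plus strand, 5 exons), the co-receptor, was at 16.9, 21.2 and 19.1 CPM in TERT(High) and 16.5, 16.1 and 14.5 CPM in TERT(Low). The groups did not overlap, yet the gap between them was narrow: the folds were 1.02, 1.31 and 1.31. The log2 difference of 0.28 (SE 0.15) did not pass, with an edgeR adjusted p of 0.281.

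In the interleukin-6 family, the shared subunit passed the test and its 2 cytokine-binding partners did not. Il6st (Entrez 16195, chr13:112464070-112506860, plus strand, 17 exons) stood at 51.5, 67.8 and 51.3 CPM in TERT(High) and at 29.3, 27.9 and 19.5 CPM in TERT(Low). Every TERT(High) library was above every TERT(Low) library, with folds of 1.76, 2.43 and 2.63 within mice. Means were 56.9 ± 9.44 and 25.6 ± 5.29 CPM, a log2 difference of 1.15 (SE 0.21, edgeR adjusted p = 0.0326), the highest value among the 8 receptors.

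Il6ra (Entrez 16194, chr3:89869324-89913196, minus strand, 10 exons) encodes the interleukin-6 binding chain. Its level was 13.4, 30.0 and 13 CPM in TERT(High) and 9.59, 14.9 and 5.90 CPM in TERT(Low). The groups overlapped through the TERT(Low) library of mouse 2, while within each mouse TERT(High) was higher, by 1.40, 2.01 and 2.20 fold. The log2 difference of 0.89 (SE 0.45) had an edgeR adjusted p of 0.253, and the value was 0.36 without the TERT(High) library of mouse 2. Each mouse gave a library to both groups, and with the mouse as a replicate block Il6ra was called higher (log2 difference 0.88, SE 0.18, edgeR adjusted p = 0.0494). The blocked fit therefore held 3 of 8 receptors higher, Met, Il6ra and Il6st, against 5.43% of all tested genes in that fit, and 0 lower, against 4.30%. An antisense gene overlaps the start of Il6ra, and since the strand setting of the read counting is not given, reads of both cannot be told apart there.

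Lifr (Entrez 16880, chr15:7090610-7197489, plus strand, 19 exons), the receptor for leukaemia inhibitory factor, was at 802, 950 and 1039 CPM in TERT(High) and 651, 737 and 1079 CPM in TERT(Low). The single highest library was a TERT(Low) one, that of mouse 3, and the groups overlapped. Folds within mice were 1.23, 1.29 and 0.963, and the log2 difference was 0.18 (SE 0.23, edgeR adjusted p = 0.652). In bulk libraries such as these, a lower share of cells that express a gene and less RNA per cell cannot be told apart.

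**Figure D2:**
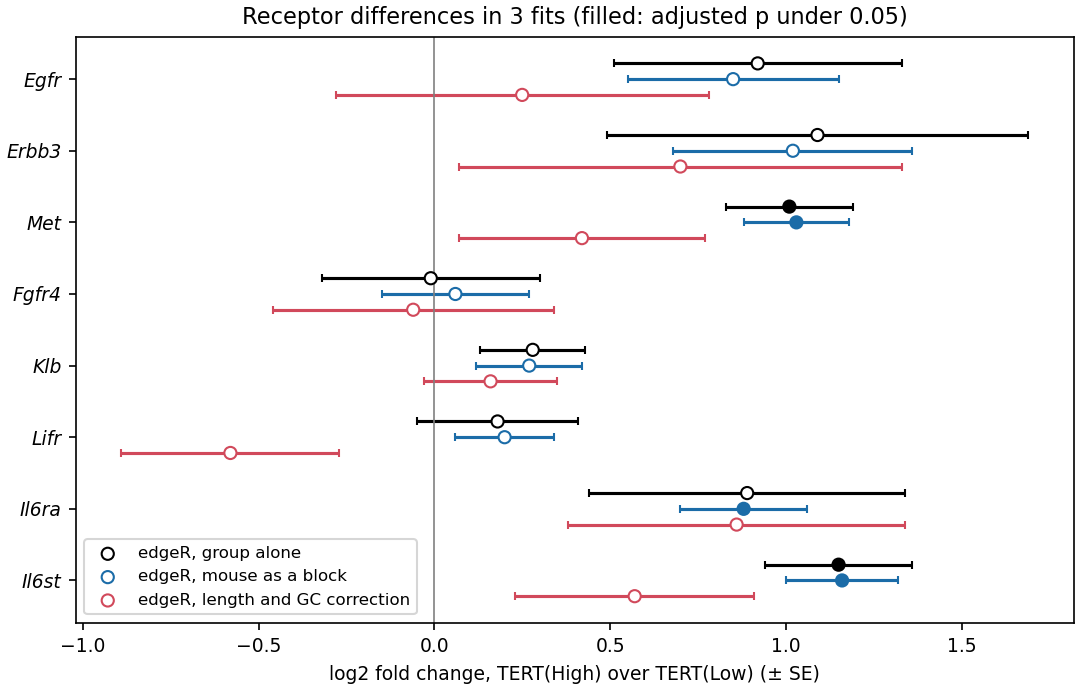
Log2 fold change ± SE of each receptor, TERT(High) over TERT(Low), in 3 edgeR fits: group alone (black), mouse as a block (blue) and a correction for transcript length and GC content (red); filled points have an adjusted p under 0.05. Met and Il6st are filled in the first 2 fits, Il6ra in the blocked fit alone, and no point is filled after the correction, where Lifr lies at -0.58.

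Since Met and Il6st were the receptors that passed the test together, the DNA before a RefSeq start of each is shown, from the RefSeq promoter windows of 250 bases before a start on GRCm38.p6. Windows were found for 7 of the 8 receptors, 8 windows in all, and Erbb3 had no entry. Capitals mark matches to the GC box GGGCGG and the CCAAT box CCAAT, searched on both strands, so the minus-strand GC box reads CCGCCC. The windows of Met and Lifr lie inside the span given for the gene, before an annotated internal start, so they are not the DNA before the outermost start. For Met only the 93 bases that no annotated exon covers are printed.
Met, chr6:17463707-17463799, plus strand: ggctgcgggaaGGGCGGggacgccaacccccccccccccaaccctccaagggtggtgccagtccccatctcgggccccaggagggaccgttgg
Il6st, chr13:112463820-112464069, plus strand: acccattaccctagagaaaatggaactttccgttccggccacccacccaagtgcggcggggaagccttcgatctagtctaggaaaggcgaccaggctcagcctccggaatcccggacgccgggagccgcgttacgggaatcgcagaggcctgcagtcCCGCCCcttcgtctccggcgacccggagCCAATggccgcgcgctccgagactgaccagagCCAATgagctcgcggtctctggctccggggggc
The whole Met window held 3 GC boxes, 1 AP-1 match (TGANTCA) and 1 E-box (CACGTG), and that of Il6st held 1 GC box and 2 CCAAT boxes. The Fgfr4 window held 2 GC boxes and that of Egfr 1, the first Lifr window held 2 and the second 1 CCAAT box. Il6ra held 1 E-box, and Klb held none of the motifs. Among all 32851 windows of this length, 32.7% held a GC box, 33.8% a CCAAT box, 6.75% an AP-1 match and 6.02% an E-box. The STAT motif TTCNNNGAA and the TATA box TATAAA were in 0 of the 8 windows, and in 7.02% and 12.4% of all windows. These are matches of letters and say nothing of binding.

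Levels of different genes were compared per kilobase of transcript. In TERT(High), Lifr was the most abundant receptor RNA at 96.4 ± 12.4 CPM per kb, followed by Egfr at 22.4 ± 12.0. Every TERT(High) library placed Lifr above Egfr and Egfr above Fgfr4. The other 6 lay close together: Fgfr4 at 6.79 ± 0.922, Il6st at 6.55 ± 1.09, Met at 5.85 ± 0.497, Il6ra at 5.62 ± 2.90, Klb at 5.38 ± 0.602 and Erbb3 at 3.45 ± 2.49 CPM per kb. Neighbours among these 6 overlapped between libraries, so their order is not resolved. Per kb of coding sequence the 6 ran from 5.17 CPM for Erbb3 to 20.7 CPM for Il6st, so their closeness depends on the length used.

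In TERT(Low), Lifr again led at 85.2 ± 23.5 CPM per kb, above Egfr at 11.8 ± 3.64 in all libraries. Fgfr4 (6.84 ± 2.92), Klb (4.44 ± 0.297), Il6ra (3.03 ± 1.35), Il6st (2.95 ± 0.610) and Met (2.90 ± 0.556 CPM per kb) followed, and only Erbb3 at 1.62 ± 0.854 lay wholly below its neighbour. With the length of its longest coding transcript, the mean of Il6ra was 1.17 CPM per kb, under that of Erbb3. Lifr alone made up 61.5% to 77.0% of the summed receptor CPM in TERT(High) and 71.7% to 87.2% in TERT(Low). Both ranges overlap.

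Ratios between receptors that work together need no scaling between libraries. The Lifr to Il6st ratio, a cytokine-binding chain over its signalling partner, was 14.0, 12.6 and 18.2 in TERT(High) of mice 1, 2 and 3 and 20, 23.7 and 49.7 in TERT(Low), per kb of transcript. The groups did not overlap, and the ratio was lower in TERT(High) in all 3 mice. On the log2 scale it was 3.88 ± 0.27 and 4.84 ± 0.70, a difference of -0.96 with an exact two-sided permutation p of 0.1, the smallest that 3 against 3 libraries allow, and 0.5 after Benjamini-Hochberg adjustment over the 5 ratios computed. Without the TERT(Low) library of mouse 3 the difference was -0.56. The permutation test, here and for the other ratios, exchanged libraries freely between the groups and ignored their pairing by mouse.

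The Il6ra to Il6st ratio was lower in TERT(High) in all 3 mice, by log2 differences of -0.33, -0.27 and -0.26, but the groups overlapped (exact permutation p = 0.5, adjusted 0.800). The difference of means was -0.29, and it became 0.28 after the length and GC correction. The Klb to Fgfr4 ratio had a narrow spread in TERT(High), with a log2 mean of -0.33 ± 0.04, and a wide one in TERT(Low), -0.54 ± 0.54 (exact permutation p = 0.800, adjusted 0.800). Erbb3 over Egfr differed by 0.17 and Met over Egfr by 0.18 on the log2 scale, each within the spread of the libraries (exact permutation p = 0.700 and 0.5, both adjusted 0.800). For Met over Egfr the mice went different ways, with differences of 1.21, -0.75 and 0.07.

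**Figure D3:**
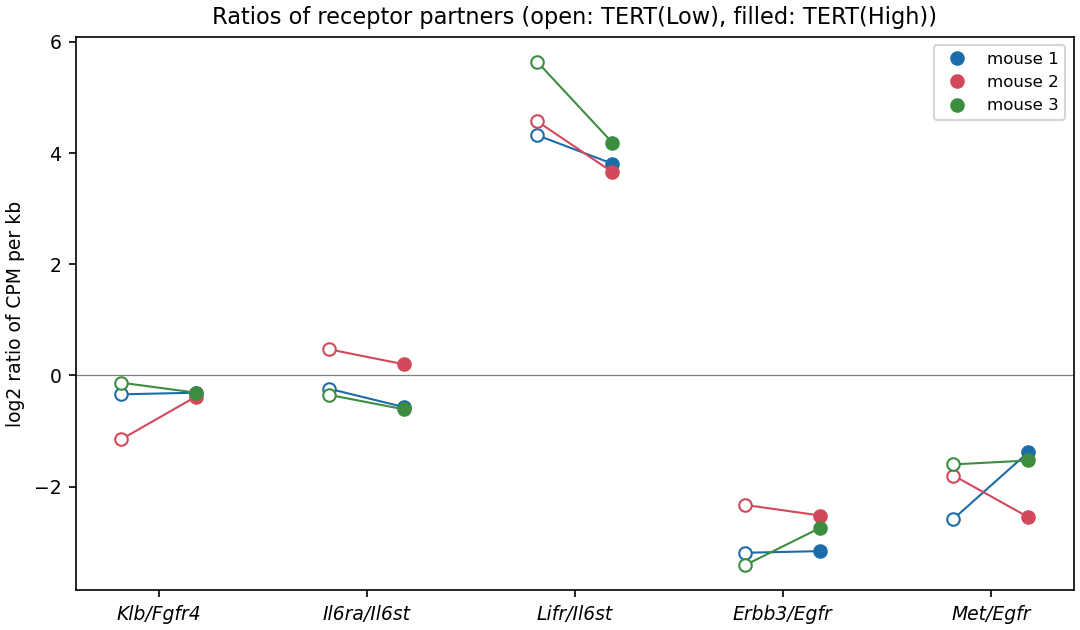
Log2 ratio of CPM per kb of transcript for 5 pairs of receptors; open points are TERT(Low), filled points TERT(High), and a line joins the libraries of 1 mouse. The Lifr to Il6st ratio has a mean of 4.84 in TERT(Low) and 3.88 in TERT(High) without overlap, while the other 4 ratios overlap between groups.

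The receptors varied unequally between mice. In TERT(High) the coefficient of variation over the 3 libraries was 8.50% for Met, 11.2% for Klb, 12.9% for Lifr, 13.6% for Fgfr4 and 16.6% for Il6st, and 51.7% for Il6ra, 53.4% for Egfr and 72.2% for Erbb3. The wide spread of the last 3 lies in mouse 2, whose TERT(High) library was 2.27, 2.34 and 3.13 times the mean of the other TERT(High) libraries for Il6ra, Egfr and Erbb3. The TERT(Low) library of mouse 2 was also high for Erbb3 (2.03 times the mean of the other TERT(Low) libraries), Fgfr4 (1.94) and Il6ra (1.92). Met, Erbb3, Fgfr4 and Il6ra had their highest library of each group in mouse 2.

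Over the 6 libraries the log2 CPM of Erbb3 and Il6ra ran together with r = 0.98, Met and Il6st with r = 0.93, and Egfr with Erbb3 and with Il6ra at r = 0.93 and 0.92. Lifr had correlations of -0.35 to 0.28 with the other receptors. These are descriptions over 6 libraries that share mice and groups. Among 7216 other genes of at least 5 CPM, a gene near to Met in pattern was Dennd5b, at r = 0.992. Nearest to Il6st were Ubr2, a ubiquitin ligase gene, and Wdr3, both at r = 0.998. All 3 were called higher in TERT(High), with edgeR adjusted p of 0.0277, 0.0298 and 0.0474. They were picked for following Met or Il6st over these same libraries, so these calls are no separate result. Near to the remaining receptors were Parp10 for Egfr (r = 0.991), Gtf3c2 and Casc3 for Erbb3 (0.994 and 0.992), and Trim14 and Trf for Fgfr4 (0.991 and 0.980). For Klb they were Zzef1 and Asxl1 (both 0.997), for Lifr AI182371 (0.984), and for Il6ra Ndst1 and Glyr1 (0.994 and 0.990).

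Receptor genes have long transcripts, and in these libraries the log2 fold change moved with transcript length. The median transcript was 6412.5 nt for the 8 receptors and 2962.5 nt for the tested genes, and Spearman's rho between length and log2 fold change was 0.48 over 12548 genes. Genes were split by length into 5 classes of about equal size. In the class of the longest transcripts, from 4909 nt upwards, the median log2 fold change was 0.65 (interquartile range 0.03 to 1.14), and 15.2% were called higher. Egfr, Met, Erbb3, Lifr and Il6st belong there. Met at 1.01 lay in the upper part of that range, Il6st at 1.15 just above it, and Lifr at 0.18 lay below the median of its length class. Klb (0.28) sat at the median of the next class, 0.28. Il6ra (0.89) and Fgfr4 (-0.01) belong to the middle class, with a median of 0.06 and an interquartile range of -0.26 to 0.40, so Il6ra lay above that range.

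With length and GC content removed as trends, 0 of 8 receptors and 0 of all genes passed edgeR's test, and 0 of 8 had an unadjusted p under 0.05 in either direction, against 8.42% of genes higher and 4.28% lower. With the mouse as a block beside the correction, again 0 receptors and 0 of all genes passed after adjustment, but 3 receptors had an unadjusted p under 0.05, all higher, against 13.7% of genes. They were Il6ra at 0.85 (edgeR adjusted p = 0.0705), Erbb3 at 0.66 (0.114) and Il6st at 0.57 (0.173). With the correction but without the block, the log2 difference was 0.42 for Met (SE 0.35, edgeR adjusted p = 0.654) and 0.57 for Il6st (SE 0.34, 0.525). In that unblocked fit it was 0.25 for Egfr, 0.70 for Erbb3, 0.16 for Klb and -0.06 for Fgfr4. Lifr changed sign, to -0.58 (SE 0.31, adjusted p = 0.495). Il6ra, at 0.86 (adjusted p = 0.507), moved least of the 5 receptors with the highest differences, but with the length of its longest coding transcript, 8639 nt in place of 3343 nt, it came to 0.37.

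**Figure D4:**
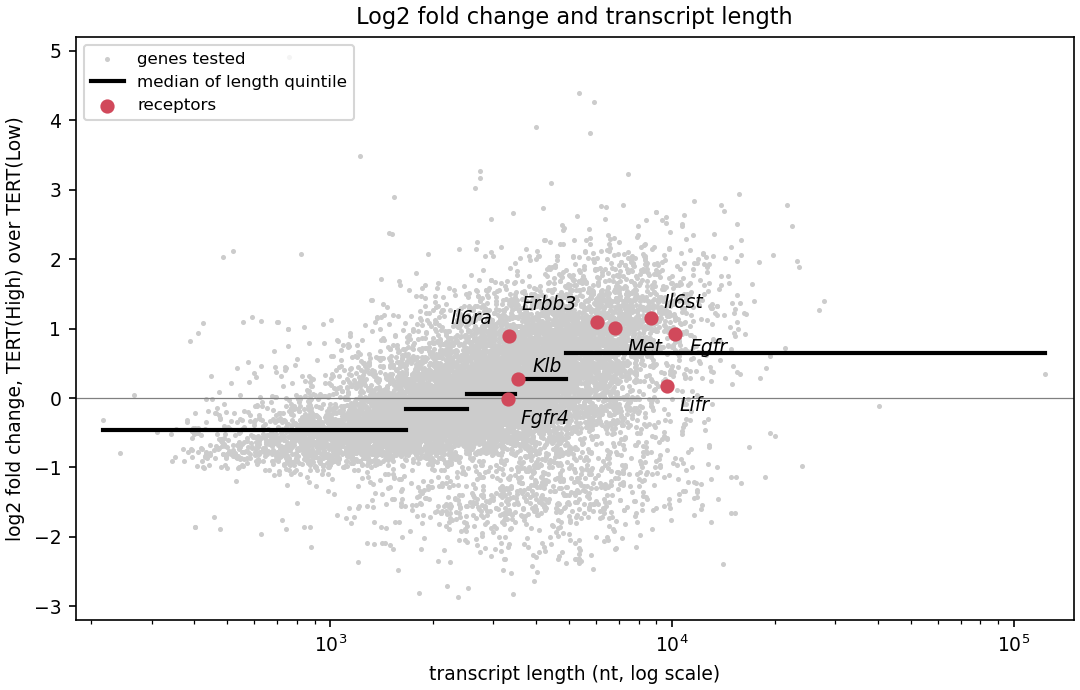
Log2 fold change, TERT(High) over TERT(Low), against transcript length in nt (log axis) for the tested genes (grey) and the 8 receptors (red); black lines span each of 5 length classes at its median. The medians run from -0.46 in the shortest to 0.65 in the longest class, and 4 of the 5 receptors in the longest class lie above its median.

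Ligand genes of these receptors and of their relatives outside the 8 were scarce or did not pass the test. Of 13 EGF-type and HGF-type ligand genes 6 were tested, and 0 were called by edgeR, 0 had an unadjusted p under 0.05, and DESeq2 called 0. Mst1, the HGF-like plasma protein of the liver, was the most abundant per kb at 150 ± 36.0 CPM in TERT(High) and 166 ± 21.3 in TERT(Low). Hgf itself, made by stellate cells, had 3 to 25 counts per library. Of 8 FGF ligand genes 2 were tested and 0 called (0 at an unadjusted p under 0.05 and 0 by DESeq2), with Fgf1 at 50.1 ± 14.5 and 36.1 ± 6.89 CPM. Of 8 interleukin-6 family cytokine genes 3 were tested, edgeR called 0, and Ctf1, cardiotrophin-1, reached 2.14 ± 0.128 and 3.99 ± 1.2 CPM (log2 difference -0.90, edgeR adjusted p = 0.0788). Ctf1 was the 1 gene of the 3 with an unadjusted p under 0.05 and the 1 that DESeq2 called lower.

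Other receptors were mixed. Of 9 tested relatives of the same families edgeR called 0 higher and 1 lower: Il11ra1, the interleukin-11 receptor chain, which also uses gp130, fell from 41.8 ± 8.76 to 22.4 ± 1.60 CPM (log2 difference -0.90, SE 0.19, edgeR adjusted p = 0.0416). Il6st and Il11ra1, partners in 1 receptor, thus differed in opposite directions. Their transcripts are of unlike length, 8678 and 2009 nt. After a correction for transcript length and GC content neither was called, with 0.57 for Il6st (edgeR adjusted p = 0.525) and -0.68 for Il11ra1 (0.366). Against 4.43% higher and 3.71% lower of all tested genes, 3 of 22 other receptors known from regeneration were higher and 0 lower. They were Lrp6, a Wnt co-receptor, at 21.5 ± 2.63 against 5.99 ± 0.483 CPM (log2 difference 1.84, edgeR adjusted p = 0.0241), Insr, the insulin receptor, at 48.3 ± 6.58 against 20.7 ± 5.54 (1.23, 0.0341), and Bmpr2, a BMP receptor, at 12.5 ± 3.38 against 5.01 ± 0.615 (1.32, 0.0318). Ghr, the growth hormone receptor and the most abundant of them per kb, was at 343 ± 40.2 and 273 ± 62.2 CPM (0.33, 0.339). Among 9 tested genes that process ligands and receptors, Adam10, a protease that sheds EGF-type ligands and receptors, was the 1 called higher (log2 difference 0.96, edgeR adjusted p = 0.0415, and 0.0567 with the replicate block). F2, the prothrombin gene and the most abundant of these 9 per kb, was at 1534 ± 336 and 1782 ± 207 CPM.

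Signal carriers inside the cell were counted next. Of 17 PI3K-AKT genes 6 were higher and 0 lower, against 4.43% and 3.71% of all tested genes. Of genes in the class of the longest transcripts, from 4909 nt upwards, 15.2% were called higher. The median log2 fold change of the 17 was 0.87, against -0.01 for all tested genes, and their median transcript was 6594 nt. Pik3c2a, a class II lipid kinase, rose from 5.07 ± 1.25 to 17.6 ± 5.88 CPM (log2 difference 1.79, edgeR adjusted p = 0.0310). Rictor, the scaffold of mTOR complex 2, Pik3r1, the regulatory subunit that docks on receptors, and Pik3ca, a catalytic subunit, rose by log2 differences of 1.42, 1.12 and 1.0 (edgeR adjusted p = 0.0277, 0.0348 and 0.0277). Pik3cb, another catalytic subunit, also passed (0.77) and is named here after its value was seen. Akt2 was at 74.4 ± 2.71 and 102 ± 4.29 CPM (-0.45, edgeR adjusted p = 0.0678). In this list DESeq2 called 9 higher and 1 lower, limma-voom 8 and 1, and edgeR with the replicate block 5 and 0. The shares of all tested genes were 12.8% and 10.6% for DESeq2, 10.3% and 8.31% for limma-voom, and 5.43% and 4.30% with the block. The median of the list was 0.48 after the length and GC correction, with 0 called, and edgeR also called 0 of the 17 without any 1 library except the TERT(High) library of mouse 1, without which it called 6.

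Of 26 genes of the adaptors and the RAS-ERK cascade 3 were higher and 0 lower: Sos1 and Sos2, the exchange factors that load RAS, and Nf1, which switches RAS off. At an unadjusted p under 0.05 edgeR had 10 higher and 4 lower, DESeq2 called 8 higher and 4 lower, limma-voom 6 and 2, and the replicate block raised edgeR's 3 to 4. Sos1 stood at 12.5 ± 0.723 against 4.11 ± 0.733 CPM (log2 difference 1.61, edgeR adjusted p = 0.0241), Sos2 at 4.18 ± 0.602 against 1.26 ± 0.299 (1.73, 0.0277) and Nf1 at 7.22 ± 1.44 against 2.76 ± 0.607 (1.39, 0.0321). The most abundant per kb was Map2k2, the ERK kinase MEK2, at 76.4 ± 2.67 and 96.2 ± 7.42 CPM (-0.33, 0.148). In the JAK-STAT list 1 of 10 was higher, Jak2, at 3.75 ± 0.946 against 1.40 ± 0.366 CPM (1.42, edgeR adjusted p = 0.0417). All 10 had a positive log2 difference, with a median of 0.58 (0.39 after the length and GC correction). At an unadjusted edgeR p under 0.05, 4 were higher and 0 lower, and DESeq2 and limma-voom each called 2 higher. Stat3, the factor downstream of gp130, was at 68.4 ± 33.2 and 43.5 ± 14.5 CPM (0.65, 0.334).

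Of 30 negative regulators edgeR called 0. At an unadjusted edgeR p under 0.05, 4 were higher, against 16.3% of all tested genes, and DESeq2 called 1 higher, against 12.8%. Errfi1, an inhibitor of EGFR family kinases and the most abundant of them per kb, was at 501 ± 39.2 and 559 ± 90.4 CPM. Of 24 genes of receptor uptake and sorting 2 were higher and 1 lower, against 4.43% and 3.71% of all tested genes. Cltc, the clathrin heavy chain, was at 112 ± 20.6 against 51.2 ± 6.51 CPM (log2 difference 1.13, edgeR adjusted p = 0.0277) and Usp8, a deubiquitinase that spares receptors from degradation, at 22.3 ± 5.60 against 8.68 ± 1.03 (1.36, 0.0283). Ap2s1, the small subunit of the AP-2 adaptor, fell from 62.5 ± 3.12 to 40.2 ± 0.915 CPM (-0.64, 0.0349), and the length and GC correction left -0.09 of it and 0.50 of the difference of Cltc. Of the higher genes named above, the correction left 0.44 for Bmpr2, 0.58 for Insr, 1.13 for Lrp6, 0.53 for Nf1, 0.77 for Sos1, 1.43 for Sos2, 0.95 for Jak2, 1.03 for Usp8 and 0.41 for Adam10. Of the PI3K-AKT genes it left 0.91 for Pik3c2a, 0.64 for Rictor, 0.48 for Pik3r1, 0.25 for Pik3cb and 0.18 for Pik3ca. With the replicate block 3 genes of the uptake and sorting list were higher and 1 lower. Clta, a clathrin light chain and the most abundant per kb over all libraries, was at 66.3 ± 7.82 and 92.8 ± 3.81 CPM (-0.48, 0.0792).

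Genes listed as targets of these receptors, or as part of the FGF15-FGFR4-Klb axis, did not pass edgeR's test with the group alone. With the replicate block 1 gene in each of 2 lists passed. Of 14 immediate early and growth genes 0 were called, 0 had an unadjusted p under 0.05 and DESeq2 called 0. Jund was at 98.1 ± 6.25 and 91.5 ± 19.0 CPM. Of 23 tested interleukin-6 and STAT3 targets edgeR called 0, while 1 had an unadjusted p under 0.05 and DESeq2 called 1, both in the lower direction. Their summed level was 25822, 56735 and 32903 CPM in TERT(High) of mice 1, 2 and 3 and 31758, 73928 and 42762 CPM in TERT(Low), so mouse 2 was highest in both populations and TERT(High) lower in each mouse. That gap lay in Hpx and Hp, haptoglobin: the targets without these 2 genes, which were singled out after their values were seen, summed to 14244, 32663 and 18586 CPM in TERT(High) and 14059, 30770 and 18829 CPM in TERT(Low). Of the 23 targets 8 had a positive and 15 a negative log2 difference. Hpx, haemopexin, the most abundant target per kb, had a log2 difference of -0.87 (edgeR adjusted p = 0.230), and 0.0407 with the replicate block, where it was called lower. Of 9 genes of the FGF15-FGFR4-Klb axis edgeR called 0, 1 had an unadjusted p under 0.05 and DESeq2 called 1, both higher. With the replicate block edgeR called Nr5a2, a nuclear receptor of bile acid synthesis, higher (log2 difference 0.94, adjusted p = 0.0450), after 0.92 and 0.0514 with the group alone. Cyp27a1, an enzyme of the alternative bile acid pathway, was at 405 ± 78.4 and 523 ± 125 CPM.

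**Figure D5:**
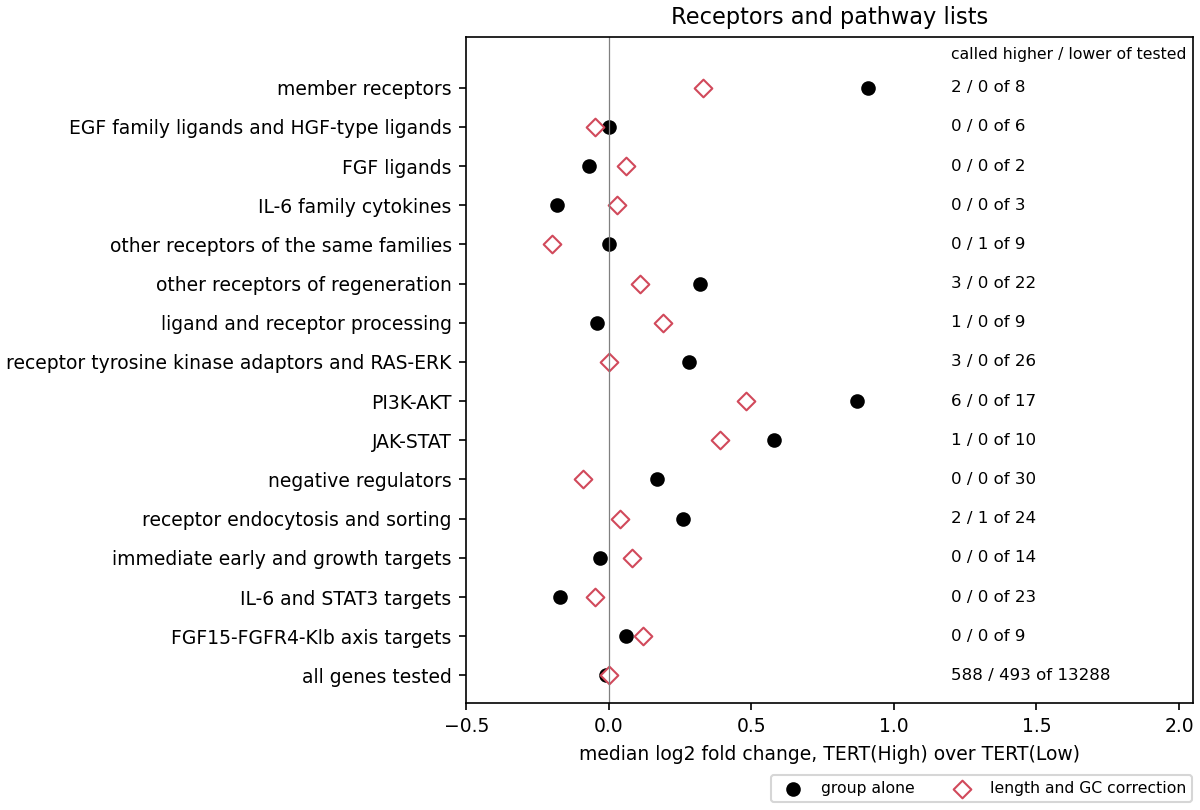
Median log2 fold change, TERT(High) over TERT(Low), of the receptors, 14 related lists and all tested genes, from edgeR with the group alone (black) and after the length and GC correction (red diamonds), with the counts called higher and lower of those tested at the right. The receptors (0.91) and PI3K-AKT genes (0.87) have the highest medians of the lists drawn, which leave out the cell type markers, and come to 0.33 and 0.48 after the correction.

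The sorted cells carried the RNA of hepatocytes, with summed hepatocyte markers of 136256 to 155983 CPM in TERT(High) and 129442 to 150322 CPM in TERT(Low). Of these 14 markers 5 had a positive and 9 a negative log2 difference, with a median of -0.13 (0.03 after the length and GC correction). At an unadjusted edgeR p under 0.05, 3 were lower, against 12.4% of all tested genes, and 0 higher. DESeq2 and limma-voom each called 3 lower, against 10.6% and 8.31% of genes, and 0 higher. Asgr1 was the 1 that edgeR called lower (log2 difference -0.71, edgeR adjusted p = 0.0485), and it was at -0.33 (0.514) after the correction. Alb, albumin, was at 83330 ± 6153 and 62650 ± 12102 CPM. Of 13 endothelial markers 12 had a positive log2 difference. The median of the 13 was 0.98 (0.65 after the length and GC correction), and 8 lay wholly above in TERT(High), against 17.5% of all tested genes. By edgeR 8 of the 13 were higher at an unadjusted p under 0.05, against 16.3% of all tested genes. DESeq2 called 6 higher, against 12.8%, and limma-voom 8, against 10.3%. After adjustment edgeR called 3 of 13 higher, against 4.43%: Kdr (1.37, edgeR adjusted p = 0.0277), Ptprb (2.25, 0.0277) and Lyve1 (1.46, 0.0452). Their sum was 52.9 to 92.8 CPM in TERT(High) and 38.3 to 49.1 CPM in TERT(Low), without overlap, while Clec4g, the most abundant per kb and the 1 marker below 0, was at 8.75 ± 2.08 and 9.25 ± 0.931 CPM. Their part in the receptor differences was not tested.

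Macrophage markers summed to 21.5 to 118 CPM in TERT(High) and 18.3 to 55.0 CPM in TERT(Low), neutrophil markers to 5.27 to 13.4 and 4.90 to 11.9, and cholangiocyte markers to 9.31 to 15.1 and 4.25 to 7.91 CPM, the last without overlap. All 13 macrophage markers had a positive log2 difference, with a median of 1.12 (1.14 after the length and GC correction), and with the replicate block edgeR called 1 higher. Of 7 tested neutrophil markers 6 were positive, with a median of 2.12, and 5 lay wholly above in TERT(High), against 17.5% of all tested genes. Cxcr2, the exception, had means of 3.25 and 6.72 CPM in TERT(High) and TERT(Low), and made up much of that sum. The 4 tested cholangiocyte markers split into 2 positive and 2 negative, with a median of 0.25, and 0 lay wholly above in TERT(High). In TERT(High) of mouse 1, Spp1 was at 10.8 of the 15.1 CPM, and its groups overlapped. Markers of T, NK and B cells summed to at most 1.22 CPM. All 13 macrophage markers were tested, and 7 of 12 neutrophil, 4 of 10 cholangiocyte, 11 of 14 stellate and 1 of 14 lymphocyte markers; Epcam, a defining gene of bile duct cells, was at 0 in 2 libraries, Cd79a and Cd79b, of B cells, in 3 each, and Mpo, of granulocytes, in 4. Stellate and fibroblast markers were at 5.96 to 248 CPM in TERT(High) and 5.59 to 14.9 CPM in TERT(Low), and the 248 CPM belonged to mouse 1, where Col1a1 was high. edgeR called 0 markers of these 5 lists, and their part in the receptor differences was not tested. At an unadjusted edgeR p under 0.05, 1 macrophage and 4 neutrophil markers were higher and 1 neutrophil marker was lower. DESeq2 called 1 macrophage and 2 neutrophil markers higher. Of all tested genes 16.3% were higher and 12.4% lower at that unadjusted p, and DESeq2 called 12.8% higher. Among periportal genes Sdhaf1 was lower (-0.75, edgeR adjusted p = 0.0340), and pericentral genes had 0 called, while 1 higher and 3 lower had an edgeR p under 0.05 before adjustment and DESeq2 called 1 lower. With the replicate block edgeR called 2 pericentral genes lower, Oat (adjusted p = 0.0421) and Lhpp (0.0487).

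The authors' deposited table of their own DESeq2 comparison held 10858 genes and all 8 receptors, of which 5 had an adjusted p under 0.05 in the higher direction, against 15.8% of its genes. In the authors' deposited table the log2 fold changes were 1.09 (SE 0.18) for Il6st, 0.95 (SE 0.19) for Met, 0.90 (SE 0.28) for Erbb3, 0.80 (SE 0.21) for Il6ra and 0.76 (SE 0.26) for Egfr. DESeq2 with the mouse as a block, fitted here to the counts, called the same 5, Egfr, Met, Erbb3, Il6ra and Il6st, against 14.0% of genes in that fit. Klb, Fgfr4 and Lifr passed in neither.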

How the data were processed

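Polyadenylated RNA of sorted hepatocytes was measured in 6 libraries, 3 TERT(High) and 3 TERT(Low), with the KAPA stranded kit per the labels' protocols. The submitters' processing notes name TopHat2 2.0.13, Trim Galore 0.4.0, the build mm10 and DESeq2 without a version. The sources used here name no counting tool, strand setting or annotation, so overlapping and antisense genes are uncertain. Per the file headers, the deposited count table gives raw counts for each gene in each library. The authors' table of results holds a mean signal per gene (baseMean), fold ratios and log2 fold changes with standard errors, a test score (the statistic) and p-value columns, all deposited by the authors from their own comparison.

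The counts were fitted with edgeR 4.0.16 in R 4.3.3 (filterByExpr by group, TMM, robust quasi-likelihood, group alone, adjusted p under 0.05). The SE is the absolute log2 fold change over the square root of F. The common biological coefficient of variation was 40.7%, and 29.6% with the mouse as a block. The labels give both libraries of a number to the same mouse, so the numbers pair them, and the deviations of paired libraries from their group means correlated at -0.112, 0.755 and 0.643 for mice 1, 2 and 3. The libraries of a group differed beyond sampling noise, by a chi-square per degree of freedom of 162 or more. The script was tested on simulated data.

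Alternatives changed the scaling, filter, tool (DESeq2 1.42.0, limma 3.58.1 voom), dispersion, block, threshold and libraries. A correction removed a trend of each library with transcript length and GC content (splines, 4 degrees of freedom each), with lengths from GENCODE M21 of the transcript with the longest coding sequence, found for 94.4% of tested genes. The longest coding transcript in its place, and DESeq2 with the block, were added after seeing the data. Gene coordinates and promoter windows are RefSeq's on GRCm38.p6. The receptors and the 23 other lists were chosen with earlier results of these data known. Named are all receptors, Tert, up to 4 called genes per list by size of change, each list's most abundant gene per length, and the 2 genes nearest to each receptor in pattern (log2 of CPM plus 0.5). Some genes that meet this rule are not reported here. Further tools were Python 3.11.15, pandas 2.3.3, numpy 2.4.6, scipy 1.17.1 and matplotlib 3.10.9.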

Additional observations from a re-analysis of the deposited data

How the results depend on the processing

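The count of receptors called higher, 2 with the group alone, was 2 with DESeq2 size factors, upper-quartile scaling, library totals, no filter, a stricter filter, non-robust dispersion, DESeq2 and limma-voom, and 3 with the replicate block, which adds Il6ra and changed the call of no other receptor. It was 0 with the length and GC correction, 0 with that correction and the replicate block, and 0 with the longest coding transcript, where edgeR called 0 of all genes too. It was 5 for DESeq2 with the replicate block. Leaving out 1 library or 1 mouse gave 0 to 2, with 2 only without the TERT(High) library of mouse 1; in the 8 other cases edgeR called 0 of all genes, and 2 or 3 receptors had an unadjusted p under 0.05. Receptors called lower were 0 throughout.

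Fgfr4 (-0.01) changed sign to 0.13 with library totals, 0.18 with limma-voom, 0.06 with the replicate block, 0.06 with the length and GC correction and the block, and 0.04 with DESeq2 and the block, and ranged from -0.24 to 0.39 over left-out libraries. Lifr (0.18) was -0.58 with the length and GC correction, -0.53 with the block added and -0.54 with the longest coding transcript. That last setting kept the same length for Lifr itself, 9655 nt, so it did not test the length used for Lifr. The Il6ra to Il6st log2 ratio (-0.29) was 0.28 after the length and GC correction. The cause was not tested. Over 22 alternatives Met ranged from 0.42 to 1.19 and Il6st from 0.57 to 1.33, each called in 11. The p-values rest on 3 mice, and an exact test of 3 against 3 libraries that ignores their pairing by mouse cannot go below 0.1.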

Other observations

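Saa1, serum amyloid A1, was at 56.0, 1547 and 499 CPM in TERT(High) of mice 1, 2 and 3 and at 66.8, 1042 and 1139 CPM in TERT(Low). Mouse 1 was low in both populations, and the groups overlapped (log2 difference -0.10, edgeR adjusted p = 0.970). Socs3, the feedback inhibitor of gp130 signalling, was at 22.8 ± 15.8 CPM in TERT(Low) and 13.1 ± 10.7 CPM in TERT(High) (-0.80, edgeR adjusted p = 0.551). Cyp7a1, the rate-limiting enzyme of bile acid synthesis that FGF15 lowers, was at 49.3 ± 40.7 CPM in TERT(Low) and 86.5 ± 58.4 CPM in TERT(High) (0.81, edgeR adjusted p = 0.514). These 3 genes were chosen after their values were seen.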
